A study of Homo sapiens with 4 samples.

Results

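The comparison described is DCBLD2 knockdown against the scramble control, gene by gene, in 2 RNA sequencing libraries of A549, a line of cultured human cells from an adenocarcinoma of the lung. DCBLD2 is a transmembrane, neuropilin-like protein, and the study examined it in epithelial-mesenchymal transition (EMT) and metastasis under cisplatin. The knockdown line (shDCBLD2) carried a short hairpin RNA against DCBLD2 in a lentiviral vector with a puromycin marker, and its control (sc) a scramble hairpin. A line with an empty vector and one labelled DCBLD2 overexpression, hereafter the library labelled OE, made up the other libraries, with 1 library per condition and no drug treatment named in the labels. Those lines were selected with blasticidin in another vector, so the empty vector is a further control line and not a replicate of sc. The sources used here do not say which hairpin the sequenced line carried.

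Genes were chosen by level. Of 57905 deposited genes, 13964 had a mean of at least 1 CPM (counts scaled to a common library total) over the 4 libraries, and these were compared. A gene was called lower or higher when it differed at least 2-fold, with a prior count of 2 added, and when the exact 95% interval of the ratio excluded no change. Values in parentheses after a log2 ratio give that interval, which covers counting error only. With 1 library per condition the difference has no replicate check and no p-value, and it compares these libraries and not the conditions. The empty vector against sc is therefore given beside it. That comparison uses sc as well, so the 2 comparisons share a library. At the edge of the filter, TBC1D32 was in with a mean of 1.00018 CPM and GPR98 was out with 0.999829 CPM. At the edge of the call, LAMB2 counted as lower with a log2 ratio of -1.00085 and NUTM2D, with -0.998339, did not.

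Epithelial cells hold together through E-cadherin junctions, tight junctions and desmosomes, and carry different transporters and secreted products on their apical and basal surfaces. In EMT these junctions are lost and genes of matrix, contractile fibres and migration rise, under transcription factors such as SNAI1, SNAI2, ZEB1 and TWIST1. A549 cells also make products of airway and gut-like endoderm, such as mucins, fibrinogen chains and enzymes of aldehyde and drug metabolism.

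DCBLD2 itself (ENSG00000057019, chr 3 at 98514785 to 98620533 as deposited, on a build that the files do not name) stood at 516 CPM in sc, 198 in shDCBLD2 and 426 for the empty vector, with 241 in the library labelled OE. It was lowest in shDCBLD2, and the value in the library labelled OE goes against that label. The log2 ratio of shDCBLD2 to sc was -1.38 (-1.44 to -1.33), a 2.61-fold lower level, from 9859 to 4259 counts.

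Most genes that differed were lower in the knockdown. Of the 13964 genes, 839 (6.01%) were lower and 152 (1.09%) higher, together 991 (7.10%), so 84.7% of the changed genes were lower. By the same rule the empty vector had 304 genes (2.18%) lower than sc and 252 (1.80%) higher, together 3.98%. With TMM factors (edgeR's scaling between libraries) that order turned, with 265 lower and 306 higher. Taken against the empty vector instead, shDCBLD2 had 1058 genes lower (7.58%) and 361 higher (2.59%), together 10.2%. Against both controls 537 genes were lower (3.85%) and 71 higher (0.508%). The median log2 ratio of shDCBLD2 to sc was -0.02 over all genes, with a 5th percentile of -1.10 and a 95th of 0.57. For the empty vector against sc these were -0.07, -0.75 and 0.66. A ratio of at least 4-fold was reached by 160 genes downward and 16 upward. For 11138 genes (79.8%) the whole interval lay within 2-fold either way, and 1835 genes were neither called nor held within 2-fold by their interval.

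**Figure D1:**
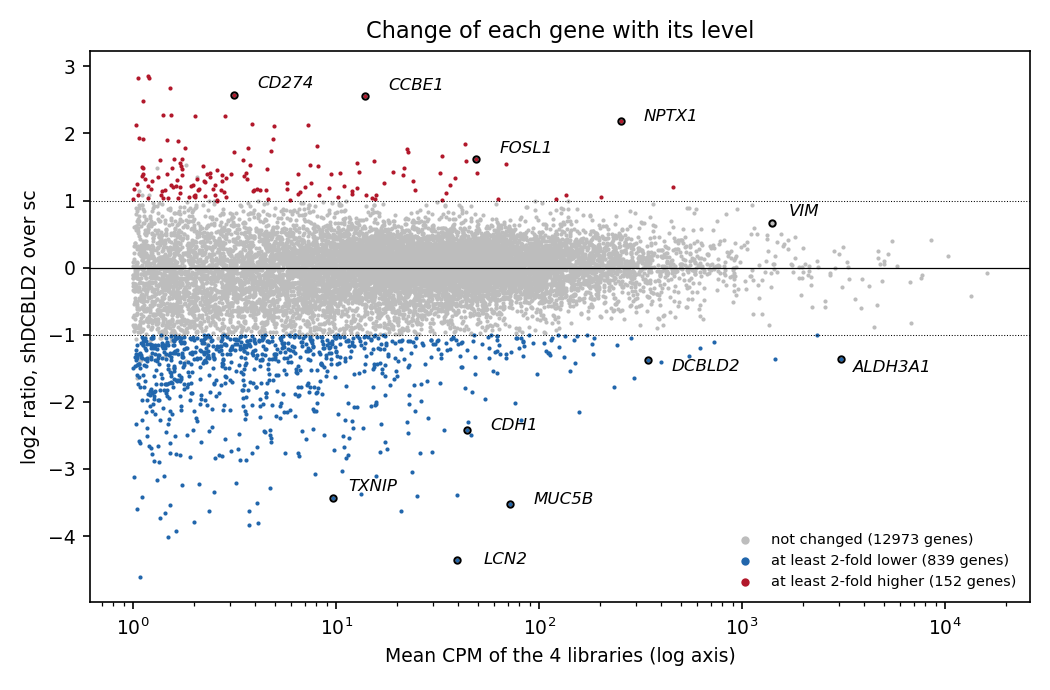
Log2 ratio of shDCBLD2 over sc (y axis) against the mean CPM of the 4 libraries (x axis, log scale) for the 13964 genes past the filter. Each point is 1 gene; the 839 lower genes outnumber the 152 higher ones, and both are most frequent at low mean CPM.

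The share of lower genes was largest at low level. Among the 2115 genes with a mean of 1 to 3 CPM, 341 (16.1%) were lower and 78 (3.69%) higher. In the same class the empty vector had 7.0% lower and 6.57% higher than sc. Level is the mean of the 4 libraries. This class therefore holds genes, such as COL1A2, that passed the filter only through the library labelled OE. With the filter over sc and shDCBLD2 alone, 711 genes were lower and 154 higher, and the classes were not redone. Among the 3627 genes of 30 to 100 CPM 1.82% were lower and 0.331% higher. At 300 CPM or more, 8 of 475 genes were lower (ABCC3, AKR1C1, AKR1C2, ALDH3A1, CA12, CPLX2, DCBLD2 and JUP) and 1 was higher. Genes with under 1000 exonic bases were lower in 11.3% of 512 cases, and those with 8000 or more in 5.31% of 2449. By the gene types of GENCODE 29, 5.66% of 12364 protein-coding genes, 15.8% of 310 lincRNA genes and 10.3% of 418 antisense genes were lower. Level, length and type go together, and their separate parts were not tested.

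By the compartments deposited with the genes, products of the cell surface and secreted products were lower more often than products of the nucleus and mitochondrion. Over all genes 6.01% were lower and 1.09% higher. Of 352 genes annotated to the extracellular space 16.2% were lower, of 90 on the basolateral membrane 17.8%, and of 125 on the apical membrane 20%. For the nucleus the share was 2.93% of 3989 genes, for the mitochondrion 2.46% of 1057 and for the nucleolus 2.20% of 1362. Proteinaceous extracellular matrix had the largest share of higher genes among the 13 compartments, 5.56% of 90, beside 16.7% lower. The empty vector against sc had 4.83% of the extracellular space genes lower and 5.68% higher, and of the nuclear genes 1.28% lower and 1.18% higher. It too had more genes lower than higher on the basolateral membrane (8.89% and 3.33%) and on the apical membrane (7.20% and 1.60%). Of its proteinaceous matrix genes 7.78% were lower and 6.67% higher. These compartments were picked after values had been seen. They were not compared at like level, and the part of level in their shares was not tested.

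**Figure D2:**
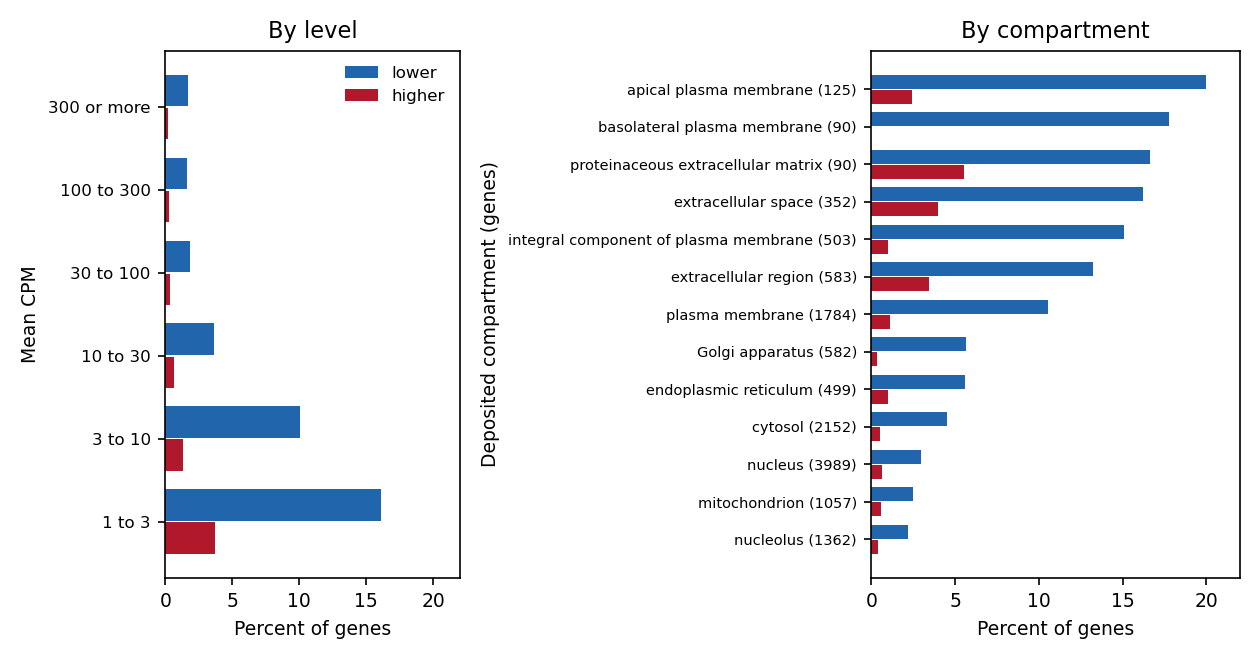
Percent of genes (x axis) at least 2-fold lower or higher in shDCBLD2 than in sc, by mean CPM of the 4 libraries and by deposited cell compartment. The lower share falls from 16.1% at 1 to 3 CPM to 1.68% at 300 CPM or more, and it is 16.2% in the extracellular space and 2.20% in the nucleolus.

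Several junction genes of epithelium were lower. Of 25 genes listed for epithelial adhesion and polarity 20 passed the filter, with a median log2 ratio of -0.61. Of the 20, 7 were lower (35%) and none higher, beside 6.01% and 1.09% over all genes. The empty vector had none of the 20 lower than sc. Of the 7, 6 were lower in shDCBLD2 than in both controls, which held for 3.85% of all genes. CDH1, which encodes E-cadherin, stood at 55.0 CPM in sc, 10.2 in shDCBLD2 and 44.4 for the empty vector, with 66.4 in the library labelled OE. The knockdown lay below the other libraries, and its log2 ratio to sc was -2.42 (-2.64 to -2.22), a 5.38-fold lower level. JUP, which encodes plakoglobin of junctions and desmosomes, stood at 353 CPM in sc, 133 in shDCBLD2 and 390 for the empty vector, with 714 in the library labelled OE. Its ratio was -1.40 (-1.47 to -1.34), but its deposited interval holds the highly counted EIF1, so the count is uncertain. The others were the tight junction genes TJP3 (-2.72, from 110 to 17 counts), CLDN4 (-1.58) and CLDN3 (-1.39), the desmosomal PKP2 (-2.15) and the adhesion molecule EPCAM (-1.40). TJP1, which encodes the scaffold protein ZO-1, had a ratio of -0.06 (-0.13 to 0.01).

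CLDN2, a pore-forming claudin outside that list, stood at 417 CPM in sc, 134 in shDCBLD2 and 142 for the empty vector, with 485 in the library labelled OE. Here shDCBLD2 and the empty vector lay together below sc, and CLDN2 overlaps the well-counted MORC4. Of 8 listed keratins past the filter 1 was lower (12.5%, beside 6.01% over all genes) and none higher. Of their ratios 5 lay above 0, with a median of 0.22. KRT4, a keratin outside that list, was lower as well. It had 503 counts in sc, 44 in shDCBLD2 and 271 for the empty vector, with 679 in the library labelled OE. The KRT4 ratio was -3.63 (-4.17 to -3.24). KRT19, a keratin of simple epithelia, was the lower one of the list. It had 1228 counts in sc, 614 in shDCBLD2 and 1163 for the empty vector, with 3028 in the library labelled OE. It fell by 1.17 on the log2 scale. The keratins KRT8 and KRT18 had ratios of -0.82 and -0.89, short of 2-fold, and their deposited intervals overlap each other. KRT8 had 160585 counts in sc, 102357 in shDCBLD2 and 103252 for the empty vector, with 141083 in the library labelled OE. KRT18 had 101107 counts in sc, 61475 in shDCBLD2 and 70309 for the empty vector, with 97299 in the library labelled OE. For both, the empty vector lay below sc as well. KRT7, another keratin of simple epithelia, stood at 4148 CPM in sc, 4946 in shDCBLD2 and 5173 for the empty vector, with 4496 in the library labelled OE, a ratio of 0.25 (0.24 to 0.27).

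Mesenchymal genes had more members higher than lower. Of 28 listed 26 passed. Of the 26, 5 were higher (19.2%) and 1 lower (3.85%), beside 1.09% and 6.01% over all genes. The median was 0.44 with 20 ratios above 0. In the empty vector against sc the median was 0.09. TAGLN, an actin-binding protein of contractile cells, stood at 34.9 CPM in sc, 102 in shDCBLD2 and 24.2 for the empty vector, with 113 in the library labelled OE, a ratio of 1.55 (1.42 to 1.68). It overlaps PCSK7, and the library labelled OE was also above both controls. TNC, the matrix glycoprotein tenascin C, had 59 counts in sc, 195 in shDCBLD2 and 54 for the empty vector, with 294 in the library labelled OE, a ratio of 1.52. TAGLN and TNC were the members higher than in both controls, which held for 0.508% of all genes. FSTL1 (1.08) and the collagen COL5A1 (1.06) also rose. COL1A2, a chain of type I collagen, counted as lower. It had 17 counts in sc, 1 in shDCBLD2 and 0 for the empty vector, with 67 in the library labelled OE, so it passed the filter only through the library labelled OE, and shDCBLD2 and the empty vector were both at the floor of 3 counts or fewer.

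VIM and CDH2, which encode vimentin and N-cadherin, did not reach 2-fold. VIM stood at 1264 CPM in sc, 2014 in shDCBLD2 and 1362 for the empty vector, with 989 in the library labelled OE. It was highest in shDCBLD2, and the log2 ratio was 0.67 (0.65 to 0.69). CDH2 stood at 63.3 CPM in sc, 98.7 in shDCBLD2 and 50.3 for the empty vector, with 46.2 in the library labelled OE. It too was highest in shDCBLD2, with a ratio of 0.64 (0.54 to 0.74). FN1, which encodes fibronectin, had a ratio of -0.69 (-0.72 to -0.66).

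The EMT transcription factors did not move as a block. Of 12 listed 9 passed, 2 were higher (22.2%) and 1 was lower (11.1%), beside 1.09% and 6.01% over all genes. SNAI2 had 83 counts in sc, 193 in shDCBLD2 and 32 for the empty vector, with 58 in the library labelled OE, a ratio of 1.03 (0.67 to 1.43). Its call was lost when the larger library was drawn down to the smaller total. FOXC2 had 36 counts in sc, 112 in shDCBLD2 and 32 for the empty vector, with 13 in the library labelled OE, a ratio of 1.42 (0.91 to 2.05). For SNAI2 and FOXC2 the knockdown was the highest library, whereas in TWIST1 it was the lowest. TWIST1 had 34 counts in sc, 13 in shDCBLD2 and 66 for the empty vector, with 49 in the library labelled OE, a ratio of -1.42 (-2.61 to -0.60). SNAI1 had a ratio of 0.74 (0.52 to 0.96), from 13.8 to 23.1 CPM, and ZEB1 one of 0.20 (-0.05 to 0.46). CTNNB1, which encodes β-catenin, had a ratio of 0.20 (0.14 to 0.26), and GSK3B, a kinase that marks it for degradation, one of 0.06 (-0.07 to 0.18).

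**Figure D3:**
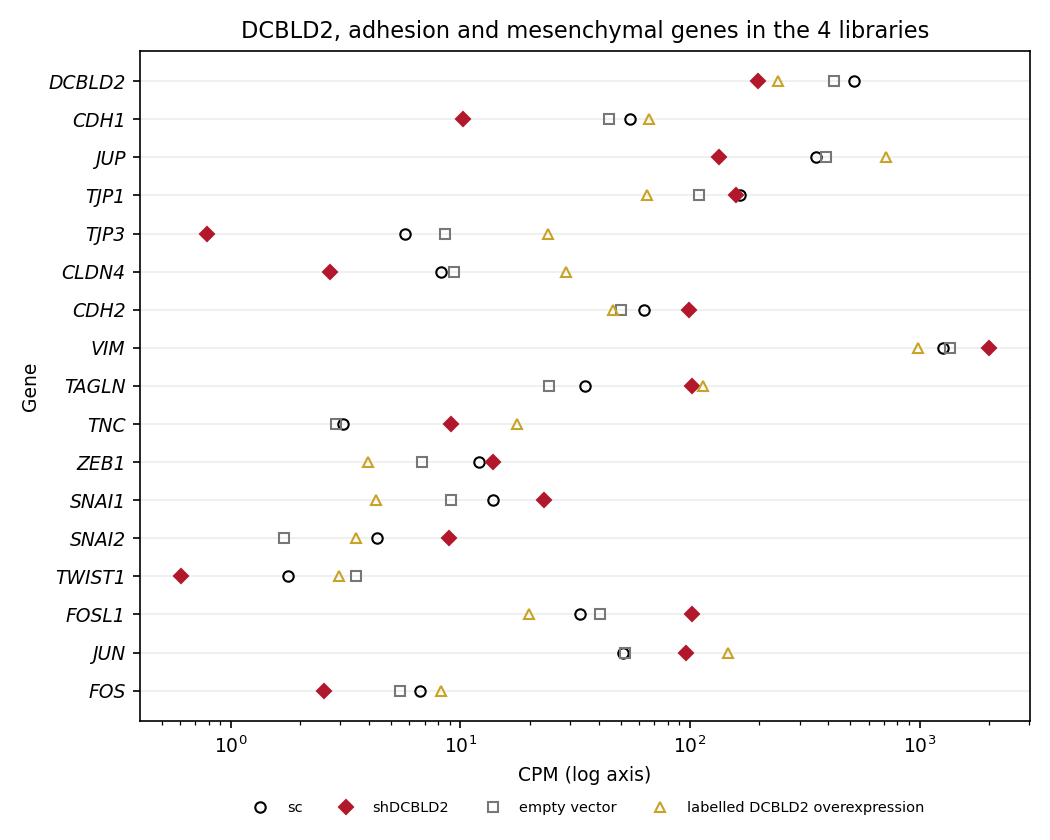
CPM (x axis, log scale) of DCBLD2, junction, mesenchymal, EMT factor and AP-1 genes (y axis) in each of the 4 libraries; each symbol is 1 library. CDH1 lies at 10.2 CPM in shDCBLD2 and at 44.4 CPM or above in the others, while VIM is highest in shDCBLD2 at 2014 CPM.

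Matrix and protease genes were split. Over all genes 6.01% were lower and 1.09% higher. Of 27 collagen and laminin chains 3 were higher (11.1%) and 1 lower (3.70%), of which 1 was higher and none lower than in both controls. Of 20 matrix proteases and inhibitors 4 were higher (20%) and 2 lower (10%), and 2 of each direction were so against both controls. The gelatinase MMP2 rose from 27.3 to 58.9 CPM, with 24.8 CPM for the empty vector, while the matrilysin MMP7 fell from 15.2 to 3.67 CPM, with 9.30 CPM for the empty vector. For both, shDCBLD2 lay outside the 2 controls. TIMP3, a metalloproteinase inhibitor, had 7 counts in sc, 46 in shDCBLD2 and 7 for the empty vector, with 141 in the library labelled OE, and passed the filter only through the last of these. Among 17 integrin subunits 3 were lower (17.6%) and none higher. Of the 3, 1 was lower than in both controls, which held for 3.85% of all genes. ITGB4, the subunit of hemidesmosomes, fell from 254 to 115 CPM and overlaps GALK1. Of 28 actin and contractile genes PDLIM5 alone was called, as lower (3.57%). It fell short of 2-fold with TMM factors, with DESeq2 size factors, with counts drawn down to the smaller total and against the empty vector. Of the 28 ratios 24 lay above 0, with a median of 0.36 and with TPM1, a tropomyosin, at 0.89 (0.85 to 0.92). The empty vector had a median of -0.14 against sc for that list.

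Mucins and airway secretory products had the lowest median of the 51 lists, -1.87. Of 35 listed 13 passed, of which 9 were lower (69.2%) and 1 higher (7.69%), beside 6.01% and 1.09% over all genes. Of the 9 lower genes 3 passed only through the library labelled OE, such as BPIFB1 with 5 counts in sc, 0 in shDCBLD2 and 1 for the empty vector, with 91 in the library labelled OE, so the count over the 13 describes only those. With the 2 members at 3 counts or fewer set to their bound, the median was -1.92. LCN2, the iron-sequestering lipocalin 2, had 383 counts in sc, 19 in shDCBLD2 and 255 for the empty vector, with 2034 in the library labelled OE, a log2 ratio of -4.36 (-5.25 to -3.84) and a 22.7-fold lower level. MUC5B, a gel-forming airway mucin, stood at 60.0 CPM in sc, 5.11 in shDCBLD2 and 11.1 for the empty vector, with 212 in the library labelled OE, a ratio of -3.53 (-3.85 to -3.27). The neighbouring mucin gene MUC5AC stood at 152 CPM in sc, 34.1 in shDCBLD2 and 68.6 for the empty vector, with 377 in the library labelled OE, a ratio of -2.15 (-2.27 to -2.04). In both mucins the empty vector lay between shDCBLD2 and sc. SLPI, a secreted protease inhibitor, had a ratio of -3.41 (-4.26 to -2.89), and AGR2, a disulfide isomerase of mucus-making cells, one of -2.28 (-2.43 to -2.14). TFF1, a trefoil peptide of gastric mucosa, was the member that rose. It had 10 counts in sc, 63 in shDCBLD2 and 8 for the empty vector, with 29 in the library labelled OE.

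The empty vector lay below sc by the same rule in 6 of these 13 genes. Of the 9 lower genes 5 were lower in shDCBLD2 than in both controls, which held for 3.85% of all genes. The log2 ratio of shDCBLD2 to the empty vector was -3.81 for LCN2 and -1.10 for MUC5B.

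Some secreted plasma proteins of the kind made by liver were lower. Of 39 complement, coagulation and fibrinolysis genes listed 28 passed the filter, with a median of -0.58. Of the 28, 11 were lower (39.3%) and none higher, beside 6.01% and 1.09% over all genes. The fibrinogen chain genes FGA, FGB and FGG had log2 ratios of -2.76, -2.33 and -1.43. FGA had 317 counts in sc, 51 in shDCBLD2 and 119 for the empty vector, with 1305 in the library labelled OE, so the empty vector lay below sc as well. The central complement protein C3, whose gene overlaps GPR108, had a ratio of -1.29 (-1.38 to -1.19). C5 fell from 529 to 216 counts while the empty vector had 572. Of the 11 lower genes 1 passed the filter only through the library labelled OE. Against sc the empty vector had 6 of the 28 lower. Of the 11, 6 were lower in shDCBLD2 than in both controls, which held for 3.85% of all genes.

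Of 31 transcription factors of endoderm lineages 24 passed, with a median of -0.59. Of the 24, 10 were lower (41.7%) and none higher, beside 6.01% and 1.09% over all genes. SPDEF, a factor of mucus-secreting cells, had 338 counts in sc, 57 in shDCBLD2 and 246 for the empty vector, with 632 in the library labelled OE, a ratio of -2.70 (-3.17 to -2.33). HNF4A, a nuclear receptor of liver and gut epithelium, stood at 76.8 CPM in sc, 30.4 in shDCBLD2 and 27.4 for the empty vector, with 58.2 in the library labelled OE, a ratio of -1.33 (-1.47 to -1.20). The knockdown was the lowest library for SPDEF, and for HNF4A it lay beside the empty vector. Others that fell were EHF (-1.67), CDX2 (-1.72, from 16 to 4 counts), ONECUT2 (-1.35), CEBPD (-1.28), SOX2 (-1.24), ELF3 (-1.05) and FOXA3 (-1.02), of which CDX2 passed the filter through the library labelled OE. FOXA2, a pioneer factor of endoderm, had a ratio of -0.02 (-0.14 to 0.10). The empty vector had 5 of the 24 lower than sc. Of the 10, 6 were lower in shDCBLD2 than in both controls, which held for 3.85% of all genes.

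**Figure D4:**
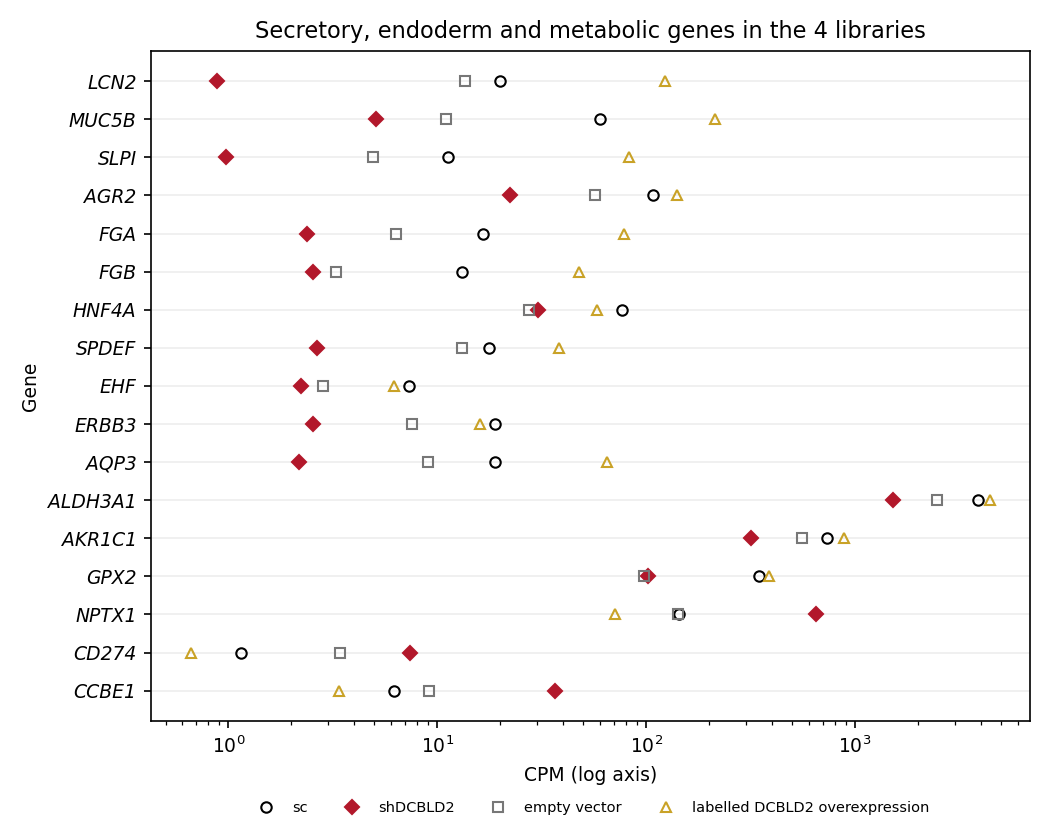
CPM (x axis, log scale) of secretory, plasma protein, endoderm, transport, metabolic and leading higher genes (y axis) in each of the 4 libraries; each symbol is 1 library. MUC5B lies at 5.11 CPM in shDCBLD2 and 60.0 CPM in sc, HNF4A and GPX2 lie near the level of the empty vector, and NPTX1, CD274 and CCBE1 are highest in shDCBLD2.

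Over all lower genes the loss came to 14787 CPM, and over all higher genes the gain was 2491 CPM. The largest loss was that of ALDH3A1, an aldehyde dehydrogenase, which stood at 3865 CPM in sc, 1511 in shDCBLD2 and 2478 for the empty vector, with 4414 in the library labelled OE, a ratio of -1.36 (-1.37 to -1.34). AKR1C1, an aldo-keto reductase that acts on steroids, had a ratio of -1.20, and its close copy AKR1C2 fell from 2899 to 1446 CPM, so reads may be split between them, and AKR1C2 fell short of 2-fold with TMM or DESeq2 size factors. CPLX2, a complexin of vesicle fusion, fell from 2233 to 865 CPM, with 1070 CPM for the empty vector. GPX2, a glutathione peroxidase of epithelia that overlaps FNTB, stood at 348 CPM in sc, 102 in shDCBLD2 and 97.4 for the empty vector, with 385 in the library labelled OE. Here shDCBLD2 and the empty vector lay together below sc. Over all genes 6.01% were lower and 1.09% higher. Of 27 aldehyde dehydrogenases and xenobiotic enzymes 7 were lower (25.9%) and none higher, with a median of -0.56. Of the 7, 2 were lower than in both controls, which held for 3.85% of all genes. Of 36 NRF2 and glutathione genes 5 were lower (13.9%) and none higher, with a median of -0.19. Against the empty vector none of the 36 was lower, and the empty vector itself had 2 lower than sc, with a median of -0.21. CES1, a carboxylesterase, had 104 counts in sc, 25 in shDCBLD2 and 82 for the empty vector, with 1450 in the library labelled OE.

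Some transporters and receptors of epithelia were lower as well. Of 25 transporters past the filter 6 were lower (24%) and 1 was higher (4%), beside 6.01% and 1.09% over all genes. Of the 6 lower ones 1 passed the filter only through the library labelled OE. Against both controls 5 were lower and 1 higher, beside 3.85% and 0.508% of all genes. AQP3, a water and glycerol channel, had 359 counts in sc, 47 in shDCBLD2 and 168 for the empty vector, with 1080 in the library labelled OE, a ratio of -3.05 (-3.58 to -2.66). ABCG1, a lipid exporter, had 104 counts in sc, 19 in shDCBLD2 and 117 for the empty vector, with 368 in the library labelled OE, a ratio of -2.50 (-3.41 to -1.91), and for it the controls lay together. KCNMA1, the large-conductance potassium channel, was the higher one. It had 597 counts in sc, 2022 in shDCBLD2 and 769 for the empty vector, with 135 in the library labelled OE. ERBB3, a receptor of neuregulins, had 361 counts in sc, 55 in shDCBLD2 and 141 for the empty vector, with 265 in the library labelled OE, a ratio of -2.84 (-3.32 to -2.47). Of 16 ErbB receptors and ligands 2 were lower (12.5%, beside 6.01% over all genes) and none higher. LRIG1, an ErbB inhibitor that overlaps SLC25A26, was the other lower gene. NOTCH3 fell from 194 to 66.8 CPM, with 98.4 CPM for the empty vector. Of 35 cholesterol and fatty acid synthesis genes 2 (5.71%) were lower, a share near the 6.01% over all genes, and none was higher.

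Interferon-stimulated genes, which cells switch on through factors such as IRF9, were lower in part. Of 43 listed 31 passed, with a median of -0.47. Of the 31, 8 were lower (25.8%) and OASL was higher (3.23%), beside 6.01% and 1.09% over all genes. OASL and BST2, an antiviral membrane protein and one of the 8, passed the filter only through the library labelled OE, BST2 with 14 counts in sc, 3 in shDCBLD2 and 7 for the empty vector, with 97 in the library labelled OE. The empty vector had MX1 alone lower than sc. Of the 8, 6 were lower in shDCBLD2 than in both controls, which held for 3.85% of all genes. IFITM3, which blocks entry of enveloped viruses, had 175 counts in sc, 77 in shDCBLD2 and 321 for the empty vector, with 284 in the library labelled OE, a ratio of -1.33 (-1.76 to -0.96). IFITM1 had 55 counts in sc, 7 in shDCBLD2 and 89 for the empty vector, with 303 in the library labelled OE, a ratio of -2.81 (-4.53 to -2.01). In both the knockdown was the lowest library and the empty vector lay above sc. The IFITM genes are close copies, and IFITM1 and IFITM2 overlap, so reads may be split between them. IRF9 went from 41 to 18 counts and IFIT1, an RNA sensor whose gene overlaps LIPA, from 48 to 15 counts. ISG15, a ubiquitin-like protein, had a ratio of 0.13 (-0.19 to 0.46). Of 17 genes of MHC class I and antigen processing none was called, and the median was -0.22.

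Promoter sequences are shown for members of that list and for other changed genes, because the letters read by interferon factors stand before a gene that rose as well as before genes that fell. They are the 250 bases before each gene's start, 5′ to 3′ on its own strand, from RefSeq on GRCh38.p14, and were not combined with the deposited coordinates. Capitals mark matches to 2 TTTC half-sites with any 2 bases between them, on either strand, as in the interferon-stimulated response element. IFIT1 (chr10:89392373-89392622, plus strand) holds 2 matches, ending 107 and 94 bases before the start, IFITM1 (chr11:313790-314039, plus strand) 1 match ending 31 bases before it, and CD274 (chr9:5450292-5450541, plus strand) 2 matches that share a half-site, ending 199 and 193 bases before it.
IFIT1: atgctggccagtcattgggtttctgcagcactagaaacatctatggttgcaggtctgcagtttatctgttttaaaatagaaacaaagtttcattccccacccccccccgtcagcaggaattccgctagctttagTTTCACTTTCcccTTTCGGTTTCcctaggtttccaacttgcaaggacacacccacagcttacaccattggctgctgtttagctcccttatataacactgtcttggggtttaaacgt
IFITM1: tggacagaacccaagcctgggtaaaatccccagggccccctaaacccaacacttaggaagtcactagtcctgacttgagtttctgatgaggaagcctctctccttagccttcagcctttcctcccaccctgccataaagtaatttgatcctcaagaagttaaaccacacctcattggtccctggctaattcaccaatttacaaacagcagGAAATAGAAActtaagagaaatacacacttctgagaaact
CD274: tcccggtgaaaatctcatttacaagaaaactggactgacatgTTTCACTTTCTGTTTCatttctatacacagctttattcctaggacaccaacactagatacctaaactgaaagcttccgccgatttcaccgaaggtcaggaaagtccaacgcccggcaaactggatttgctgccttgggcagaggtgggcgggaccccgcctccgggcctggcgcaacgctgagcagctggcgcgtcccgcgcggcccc
CD274, which encodes the immune checkpoint ligand PD-L1, had the highest ratio among changed genes with at least 100 counts in either library. It had 22 counts in sc, 159 in shDCBLD2 and 64 for the empty vector, with 11 in the library labelled OE, a ratio of 2.58 (2.03 to 3.40). Of the 25 interferon-stimulated genes with a promoter sequence 14 held the letters, among them 5 of the 7 lower ones, BST2 included. Over all 35116 promoters of the table the share was 3.02%. Among genes compared here it was 2.13% of 9723, with 2.74% of 511 lower and 3.37% of 89 higher genes.

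For AP-1, a dimer of FOS and JUN family factors, capitals mark TGANTCA on either strand, where N is any base. This pattern is looser than the AP-1 site TGA(C/G)TCA, and the shares below count every centre base. The matches in IL11 and S100A2 have that site, whereas the LCN2 match, TGAATCA, does not. IL11 (chr19:55370464-55370713, minus strand, match ending 90 bases before the start) and S100A2 (chr1:153565845-153566094, minus strand, ending 46 bases before it), a calcium-binding protein of epithelia, were higher, and LCN2 (chr9:128149203-128149452, plus strand, ending 46 bases before it) was lower.
IL11: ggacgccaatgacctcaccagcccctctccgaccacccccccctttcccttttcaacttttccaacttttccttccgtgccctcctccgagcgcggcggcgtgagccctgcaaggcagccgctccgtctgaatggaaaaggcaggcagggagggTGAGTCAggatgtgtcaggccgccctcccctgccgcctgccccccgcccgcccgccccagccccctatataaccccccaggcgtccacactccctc
S100A2: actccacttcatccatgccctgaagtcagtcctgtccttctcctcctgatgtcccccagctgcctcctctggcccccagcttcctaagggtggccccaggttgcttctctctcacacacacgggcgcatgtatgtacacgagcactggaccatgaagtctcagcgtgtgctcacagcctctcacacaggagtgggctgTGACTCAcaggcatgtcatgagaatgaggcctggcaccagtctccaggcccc
LCN2: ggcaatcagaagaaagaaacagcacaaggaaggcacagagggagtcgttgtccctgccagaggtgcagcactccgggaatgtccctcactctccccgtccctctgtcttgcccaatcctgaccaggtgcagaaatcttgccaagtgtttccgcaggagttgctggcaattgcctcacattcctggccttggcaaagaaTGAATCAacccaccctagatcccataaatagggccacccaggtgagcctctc
These letters stood in the promoters of 9 of 89 higher genes (10.1%), 31 of 511 lower genes (6.07%), 3.78% of all genes compared and 6.57% of all promoters in the table. Of 17 mesenchymal genes with a promoter sequence none held these letters, and of 13 matrix proteases and inhibitors 2 did. The E-box letters CAGGTG, on either strand, were searched as well. They stood in 20.4% of 511 lower genes, 14.6% of 89 higher genes and 15.7% of all genes compared. Of 14 genes of epithelial adhesion and polarity with a promoter sequence 6 held them, but none of the 4 lower ones did. A match describes the letters only. S100A2 had 78 counts in sc, 201 in shDCBLD2 and 81 for the empty vector, with 85 in the library labelled OE, a ratio of 1.17 (0.81 to 1.59).

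Of 23 AP-1 and immediate early genes past the filter FOSL1 was higher (4.35%, beside 1.09% over all genes) and FOS and EGR1 were lower (8.70%, beside 6.01%), with a median of 0.03. EGR1 passed the filter only through the library labelled OE and was not lower than the empty vector. FOSL1, the FOS family member FRA1, had 637 counts in sc, 2202 in shDCBLD2 and 760 for the empty vector, with 330 in the library labelled OE, a ratio of 1.61 (1.49 to 1.75). FOS had 127 counts in sc, 55 in shDCBLD2 and 102 for the empty vector, with 137 in the library labelled OE, a ratio of -1.35 (-1.86 to -0.91). For both, the 2 controls lay closer to each other than to the knockdown. JUN stood at 51.2 CPM in sc, 96.2 in shDCBLD2 and 51.9 for the empty vector, with 146 in the library labelled OE, a ratio of 0.91 (0.80 to 1.02).

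Of 34 NF-κB targets, cytokines and chemokines past the filter 9 were lower (26.5%) and 3 higher (8.82%), beside 6.01% and 1.09% over all genes. Their median was -0.26, while the empty vector had a median of 0.40 against sc. Of the 9 lower genes 3 passed only through the library labelled OE. Against both controls 7 were lower and none was higher, beside 3.85% and 0.508% of all genes. PTGS2, the inducible cyclooxygenase, had 773 counts in sc, 161 in shDCBLD2 and 348 for the empty vector, with 1148 in the library labelled OE, a ratio of -2.42 (-2.69 to -2.19). The neutrophil chemokine CXCL1 fell from 45.9 to 18.1 CPM while the empty vector stood at 61.0 CPM. IL11, a cytokine of the IL-6 family, stood at 92.5 CPM in sc, 189 in shDCBLD2 and 106 for the empty vector, with 98.5 in the library labelled OE, a ratio of 1.03 (0.95 to 1.11). IL6 had 20 counts in sc, 66 in shDCBLD2 and 38 for the empty vector, with 14 in the library labelled OE. BCL2A1, an anti-apoptotic protein, had 50 counts in sc, 220 in shDCBLD2 and 97 for the empty vector, with 24 in the library labelled OE, and for these last 3 the empty vector lay between sc and shDCBLD2.

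Of 31 TGF-β and BMP genes 4 were lower (12.9%) and 1 higher (3.23%), beside 6.01% and 1.09% over all genes, and with DESeq2 size factors 2 were lower. INHBA, the activin A subunit, had 73 counts in sc, 279 in shDCBLD2 and 29 for the empty vector, with 12 in the library labelled OE, a ratio of 1.74 (1.38 to 2.15). INHBB, the activin B subunit, moved the opposite way, from 64.6 to 16.5 CPM, and the ligand BMP4 fell from 21.3 to 5.62 CPM. Among 34 Wnt pathway and β-catenin target genes 3 were lower (8.82%) and FOSL1 was higher (2.94%), shares near those over all genes. RNF43, a ubiquitin ligase that removes Frizzled receptors, had 520 counts in sc, 66 in shDCBLD2 and 87 for the empty vector, with 459 in the library labelled OE, with shDCBLD2 and the empty vector both far below sc, and it overlaps SUPT4H1. Of 33 semaphorin, plexin, ephrin and Slit genes 7 were lower (21.2%, beside 6.01% over all genes) and none higher. Of the 7, 3 were lower than in both controls, which held for 3.85% of all genes. The empty vector had 3 of the 33 lower than sc, with a median of -0.20. The guidance ligand SEMA3B fell from 37.8 to 10.8 CPM.

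Among the higher genes, NPTX1, a secreted neuronal pentraxin, had the largest gain in CPM and stood at 143 CPM in sc, 652 in shDCBLD2 and 142 for the empty vector, with 70.6 in the library labelled OE. Its ratio was 2.19 (2.13 to 2.25), and the 2 controls were nearly equal. CCBE1, a matrix protein needed for lymphatic growth, had 118 counts in sc, 792 in shDCBLD2 and 171 for the empty vector, with 56 in the library labelled OE, a ratio of 2.55 (2.29 to 2.87). Others among the 20 with the highest ratios were PEAR1 (2.13), a receptor of platelets and endothelium, TMEM158 (1.82), the cardiac transcription factor NKX2-5 (1.77, from 181 to 702 counts), ANPEP (1.72), an aminopeptidase, and GLIPR1 (1.67), which overlaps KRR1.

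Several lists of growth, protein synthesis and respiration held no called member. Of 53 mitosis genes 41 had a ratio above 0, with a median of 0.29, where the empty vector had -0.16 against sc. PLK1, a mitotic kinase, had a ratio of 0.42 (0.37 to 0.48), and CCNB1, cyclin B1, one of 0.44 (0.39 to 0.50). Medians were 0.21 for 50 G1/S and DNA replication genes, 0.24 for 42 splicing factors with 41 above 0, 0.28 for 20 aminoacyl-tRNA synthetases, 0.27 for 22 cytosolic heat shock proteins and 0.15 for 31 proteasome subunits. Ribosomal proteins had a median of -0.08 over 67 genes, and nuclear-encoded respiratory chain subunits one of -0.07 over 67, where the empty vector had 0.34 and 0.18 against sc. In all, 15 of the 51 lists held no changed gene, 30 held more lower than higher genes and 6 more higher than lower. Some genes, such as LCN2 and FOSL1, are in more than 1 list. Together the lists held 148 distinct changed genes, of the 991 changed.

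**Figure D5:**
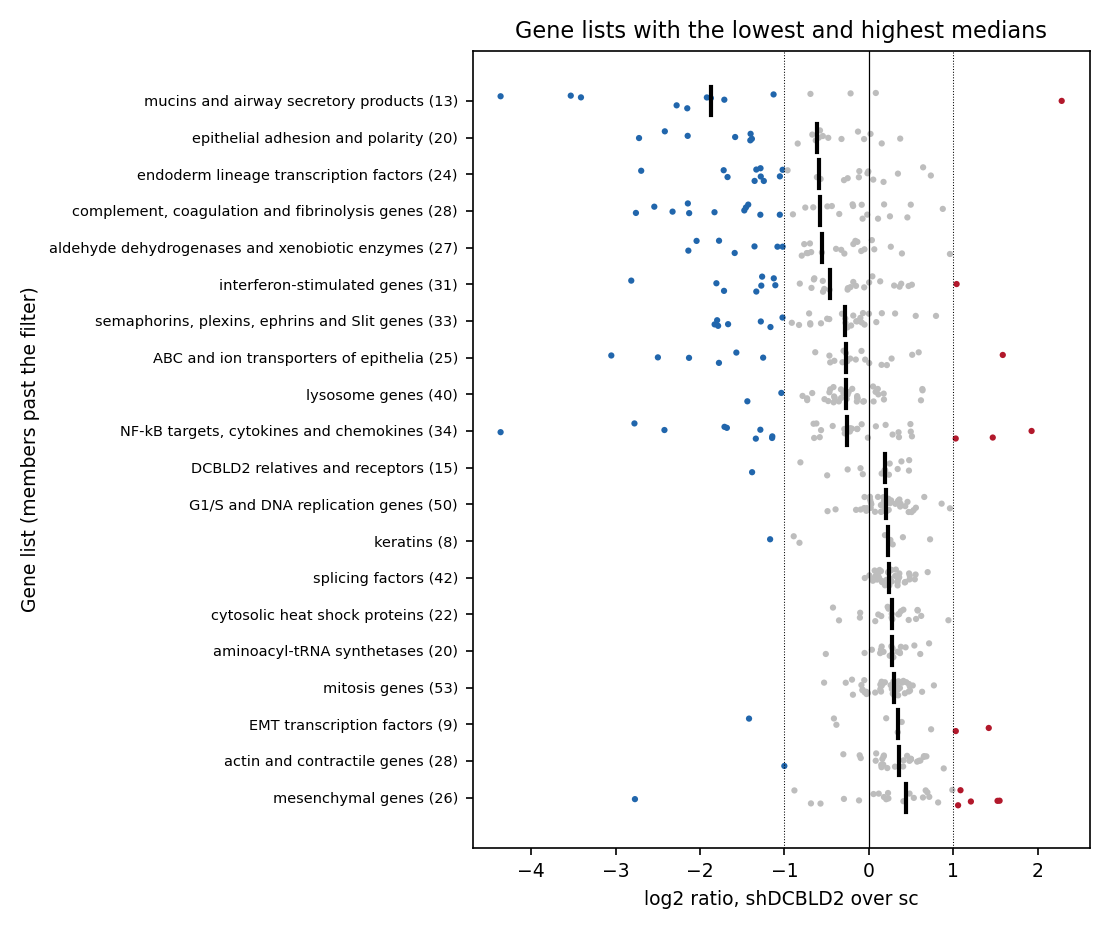
Log2 ratio of shDCBLD2 over sc (x axis) for the members past the filter of gene lists (y axis), with genes as points, medians as bars and dotted lines at 2-fold. Medians run from -1.87 for mucins and airway secretory products to 0.44 for mesenchymal genes.

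Along the chromosomes, the median of 25 neighbouring genes lay within 0.25 of 0 in 95.9% of 13376 windows, and ran from -0.73 to 0.35. The lowest window lay on chr 11 between 856880 and 2946476 as deposited and held 9 lower genes, among them MUC5AC, MUC5B, H19 and KCNQ1, while its median in the empty vector was 0.05.

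Total counts lay between 16601633 and 21537283, with 19104052 in sc and 21537283 in shDCBLD2, and 8.41% to 9.83% of counts fell on the 10 most counted genes. Genes with at least 1 count numbered 22989 in sc and 22674 in shDCBLD2. Of 16 A549 and epithelial markers all had over 3 counts in each library. In shDCBLD2 7 were lower and none higher, beside 6.01% and 1.09% over all genes. The summed level of the 16 was 37834 CPM in sc, 24772 in shDCBLD2 and 31193 for the empty vector. Alveolar type 2 markers summed to 102 CPM in sc and 85.1 in shDCBLD2, nearly all from ABCA3, with SFTPA1 and NKX2-1 at 0 in both. The 11 fibroblast markers summed to 40.4 and 61.0 CPM, mostly from COL1A1 with 639 and 1165 counts, with DCN, LUM and FAP at 0 in both. Blood cell markers summed to 10.2 and 5.20 CPM with PTPRC at 0, and endothelial markers to 0.314 and 0.186 CPM with VWF at 0. Markers of HEK293 and HEK293T cells, a line of which produced the lentiviruses, summed to 520 and 596 CPM. PEG10 and PRAME had the most counts, with 4265 and 3302 in sc and 7437 and 2729 in shDCBLD2. GAL and NEFL, with few counts, were called higher, and STMN2 and SYT4 were at 0. The part of these markers in the results was not tested, and in bulk RNA fewer cells of a type and less RNA per cell cannot be told apart.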

How the data were processed

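RNA of 4 A549 libraries was sequenced after poly(A) selection, with 1 library per condition, so nothing could be compared between replicates. The authors deposited whole-number read counts per gene, not normalized, and FPKM values that equal the counts over exonic size and column total. The sample files hold the same counts as the table for all 4 libraries. Aligner, counter and strand setting are not given in the sources used here. The submitters' processing notes name only the genome build mm9, a mouse build, while 100% of the gene IDs are human Ensembl IDs. Counts were divided by the column sum (CPM), and FPKM entered no result. Log2 ratios used a prior count of 2, and 95% intervals came from the exact (Clopper-Pearson) limits of one library's part of the summed counts. A library at 3 counts or fewer was treated as at the floor, which is 0.139 CPM in shDCBLD2. Of the changed genes, 48 had such a count in one of both libraries, and no fold is given for them.

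The 51 gene lists hold 1640 entries, of which 5 were not matched and 5 were found under another symbol. A symbol on several entries was read from the one with the most counts. The genes, lists and markers were chosen with earlier results of these data known. Lists are described by counts and medians, with no set test. Genes named by rule were DCBLD2, those the study measured by other means or screened, the 20 lowest and 20 highest ratios among changed genes with at least 100 counts in either library, the 10 largest losses and gains of CPM, and up to 5 changed members of each list. Not every one of these is given, and genes outside the rule were picked with their values in view. Of the genes past the filter 67.2% overlap another deposited gene, and an overlap is named only where the partner is well counted. Promoters were matched by symbol, and motifs and compartments were picked with values in view. Results for some genes are not reported here. Python 3.11.15, numpy 2.4.6, scipy 1.17.1, pandas 2.3.3, matplotlib 3.10.9, R 4.3.3, edgeR 4.0.16 and DESeq2 1.42.0 were used, the last 2 for scaling factors only. The ratio, interval and call were tested on simulated data.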

Additional observations from a re-analysis of the deposited data

How the results depend on the processing

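No paired analysis was possible because each condition has 1 library. Lower genes outnumbered higher ones in the knockdown under every alternative run, and 84.7% of changed genes were lower. With the empty vector as control that share was 74.6%, with 1058 genes lower and 361 higher, and the cause was not tested. Lower and higher genes numbered 537 and 71 when the difference had to hold against both controls, 1352 and 400 without a filter on level, 368 and 54 at a mean of 5 CPM or more, 1743 and 588 at a 1.5-fold threshold, 295 and 36 at 3-fold, and 321 and 56 over genes that overlap no other deposited gene. For the empty vector against sc the counts of 304 and 252 became 579 and 520 without a filter, 103 and 78 at 5 CPM, 1190 and 798 at 1.5-fold, 87 and 31 at 3-fold, and 104 and 104 without overlaps, and turned to more higher than lower genes with TMM factors (265 and 306) and DESeq2 size factors (264 and 307). Filters, thresholds and gene subsets change these counts by construction.

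TMM factors and DESeq2 size factors changed every log2 ratio by 0.03 and 0.06, upward, and left 788 and 746 genes lower. The log2 ratio of DCBLD2 was -1.33 with DESeq2 size factors and -1.11 with the empty vector as control. Of the 152 genes named by rule 142 were called, and 7 of these changed sign with the empty vector as control, where GPX2 had 0.061, HNF4A 0.15, ONECUT2 0.019, CDH17 0.14, UGT1A6 0.56, EGR1 0.33, and COL13A1 -0.14, and the cause was not tested. For 6 of the 142, COL1A2 and OR51E1 among them, no ratio to the empty vector is given, since a library was at 3 counts or fewer. Of the 142, 4 fell short of 2-fold with TMM factors, 8 with DESeq2 size factors, 3 with a prior count of 5 and 3 with counts drawn down. The lower collagen or laminin gene, LAMB2, was lost with either scaling and with a prior count of 5, and OASL with a prior count of 5. No named gene that was called changed sign under other scaling, prior counts of 0.5 and 5, or counts drawn down to the smaller total. The protein-coding alternative was not run as planned, since the table used holds no gene type. By GENCODE 29 types, chosen after seeing the data, 700 genes were lower and 121 higher. With the filter over sc and shDCBLD2 alone, also chosen later, 711 were lower and 154 higher.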

Other observations

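Genes of homophilic cell adhesion, by the deposited annotation, included 16 of 58 that were lower in shDCBLD2 (27.6%) and none that was higher, against 6.01% lower over all genes compared. The term was picked after its values had been seen, and against sc the empty vector too had 18.97% of these genes lower, with a median log2 ratio of -0.41. Beside CDH1, the lower cadherins included CDH17 of intestinal epithelium, with 149 counts in sc, 23 in shDCBLD2 and 18 for the empty vector, with 266 in the library labelled OE. CDH16, a kidney cadherin, had 40 counts in sc, 1 in shDCBLD2 and 16 for the empty vector, with 58 in the library labelled OE, and its ratio rests on 1 count. CELSR2, a planar polarity cadherin, fell from 54.0 to 25.3 CPM. Among the clustered protocadherins PCDHAC2, PCDHAC1, PCDHA11 and PCDHA12 were lower, but these genes overlap one another, so their counts are uncertain.

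TXNIP, which binds thioredoxin and restrains glucose uptake, had 28 counts in sc, 1 in shDCBLD2 and 90 for the empty vector, with 533 in the library labelled OE. CEACAM6, an adhesion molecule of epithelia, had 2138 counts in sc, 982 in shDCBLD2 and 80 for the empty vector, with 1598 in the library labelled OE, so its level differed more between the 2 control lines than between shDCBLD2 and sc. GDF15, a stress-induced cytokine, had 1057 counts in sc, 576 in shDCBLD2 and 2764 for the empty vector, with 1599 in the library labelled OE, with the empty vector far above sc and shDCBLD2 below both. MYOCD, a co-activator of smooth muscle genes, had 52 counts in sc, 167 in shDCBLD2 and 63 for the empty vector, with 73 in the library labelled OE, a log2 ratio of 1.48 (1.05 to 1.99).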
